A study of Mus musculus with 8 samples.

Results

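Low-threshold T-type calcium channels and hyperpolarization-activated cyclic nucleotide-gated (HCN) channels were followed through 6 genes, Cacna1g, Cacna1h, Cacna1i, Hcn2, Hcn3 and Hcn4, on 8 Affymetrix arrays of mouse thalamic tissue. The genes were chosen by symbol, as the channels that drive thalamic burst firing. Each of the 6 had 1 probe set with its symbol alone among the 35557 probe sets of the array, and all 6 passed the brightness filter described here. With probe sets without a gene symbol left out as well, 15791 probe sets remained to test. The mice were male C57BL/6, an inbred strain, 6 weeks old at the start, in 4 groups with 2 arrayed mice each. Acupoint mice received MPTP intraperitoneally at 20 mg/kg every 24 hr for 4 weeks and were needled at LR3, to a depth of 1 mm, and at GB34, to 3 mm, points of the foot and lower leg, in 14 sessions 48 hr apart. Non-acupoint mice received the same MPTP and were needled 3 mm deep on both sides of the hips on the same schedule, MPTP mice received MPTP without needling, and control mice received saline. MPTP is a toxin of dopaminergic neurons that serves to model parkinsonism. RNA came from the whole bilateral thalamic tissue of a mouse, so that fewer cells of a type and less RNA per cell cannot be told apart in any value here.

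Thalamic neurons fire either single spikes or bursts. T-type channels open at potentials close to rest once a hyperpolarization has made them available, and their calcium spike carries the burst, while HCN channels open on hyperpolarization, pass a depolarizing pacemaker current and are bound by cAMP. Cacna1g encodes Cav3.1, the T-type channel of thalamocortical relay neurons, whereas Cacna1h (Cav3.2) and Cacna1i (Cav3.3) are known from the inhibitory neurons of the thalamic reticular nucleus. Hcn2 and Hcn4 encode the main HCN channels of relay neurons, and Hcn3 encodes a channel with a weaker response to cAMP.

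RefSeq promoter entries (GRCm38.p6) matched 3 of the 6 genes, and the 250 bases upstream of the start are shown for each of these. They were chosen by having an entry and not by their patterns over the arrays. Capitals mark matches to the GC box GGGCGG on either strand.
Hcn4, chr9:58822699-58822948, plus strand: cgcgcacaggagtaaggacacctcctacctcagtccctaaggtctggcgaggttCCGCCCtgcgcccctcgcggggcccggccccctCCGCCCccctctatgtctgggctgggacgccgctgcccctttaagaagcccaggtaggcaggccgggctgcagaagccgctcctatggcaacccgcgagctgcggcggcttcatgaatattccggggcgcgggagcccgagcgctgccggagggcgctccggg
Hcn2, chr10:79716384-79716633, plus strand: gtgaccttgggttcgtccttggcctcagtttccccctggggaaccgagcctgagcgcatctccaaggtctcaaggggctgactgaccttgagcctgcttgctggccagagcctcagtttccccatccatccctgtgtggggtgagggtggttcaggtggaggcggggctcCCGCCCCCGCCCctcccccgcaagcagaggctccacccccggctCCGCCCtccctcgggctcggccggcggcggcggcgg
Cacna1i, chr15:80286988-80287237, plus strand: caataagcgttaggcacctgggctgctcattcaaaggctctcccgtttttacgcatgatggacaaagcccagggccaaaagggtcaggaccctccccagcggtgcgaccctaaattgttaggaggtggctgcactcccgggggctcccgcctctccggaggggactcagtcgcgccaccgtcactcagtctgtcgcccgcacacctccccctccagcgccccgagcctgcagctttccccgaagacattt
The GC box matched 2 times upstream of Hcn4, 3 times upstream of Hcn2, where 2 of the matches adjoin, and 0 times upstream of Cacna1i, and 32.7% of the 32851 RefSeq promoter windows of this length hold it. The windows of Hcn4, Hcn2 and Cacna1i are 71.2%, 70.4% and 62.4% G and C. Among the other motifs searched on both strands, the ROR half-site AGGTCA (in 14% of windows) matched 2 times upstream of Hcn2, the TCF/LEF core CTTTGA (13.8%) and the CRE half-site TGACG (17.8%) 1 time each upstream of Cacna1i, and the E-box CANNTG (66.2%) 1 time each upstream of Hcn2 and Cacna1i. None of these 4 motifs matched upstream of Hcn4. A match of letters describes the sequence and is no evidence of binding.

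Values are log2 levels, so that 1 unit is a 2-fold difference, and levels of different genes are not set against each other. Array medians lay between 6.18 and 6.29. A pair of arrays, of mouse 1 of the MPTP group and mouse 1 of the non-acupoint group, stood apart. Over all probe sets Pearson's r was 0.987 within this pair, 0.952 to 0.969 between the pair and the remaining 6 arrays, and 0.984 to 0.991 among those 6. Cytosolic ribosome genes (11 of 18 listed genes measured) averaged 9.96 and 9.87 on these 2 arrays and 10.54 to 10.74 on the other 6. Results are therefore given for all 8 arrays and again for the other 6, where 1 MPTP array and 1 non-acupoint array remain and are assumed to vary like the rest. All 12 thalamic relay neuron markers passed the filter, with list means of 9.06 to 10.03. Passing does not identify the tissue, since all 7 choroid plexus and all 6 striatal markers measured passed as well. Markers of neighbouring regions were measured as well, and their mean levels differed between groups. Those of midbrain dopamine neurons (6 genes) averaged 6.97 and 6.86 in acupoint mice 1 and 2, 7.34 and 7.78 in non-acupoint mice, 6.94 and 8.65 in MPTP mice and 9.14 and 8.97 in controls. Hypothalamic markers (7 genes) averaged 6.27 to 7.31 in acupoint mice, 7.28 to 7.95 in non-acupoint mice, 6.70 to 7.72 in MPTP mice and 8.11 to 8.17 in controls. Habenula markers (7 genes) averaged 6.90 and 7.48 in acupoint mice, 6.12 and 5.99 in non-acupoint mice, 7.13 and 6.16 in MPTP mice and 6.35 and 6.35 in controls, so that both acupoint mice were above both non-acupoint mice and both controls, as for Cacna1g. Choroid plexus markers (7 genes) averaged 8.80 and 9.34 in acupoint mice, 5.62 and 5.84 in non-acupoint mice, 9.35 and 9.43 in MPTP mice and 7.31 and 7.40 in controls, and striatal markers (6 genes) ranged from 7.39 in acupoint mouse 1 to 9.76 in MPTP mouse 1. The part of tissue makeup in the results was not tested.

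**Figure D1:**
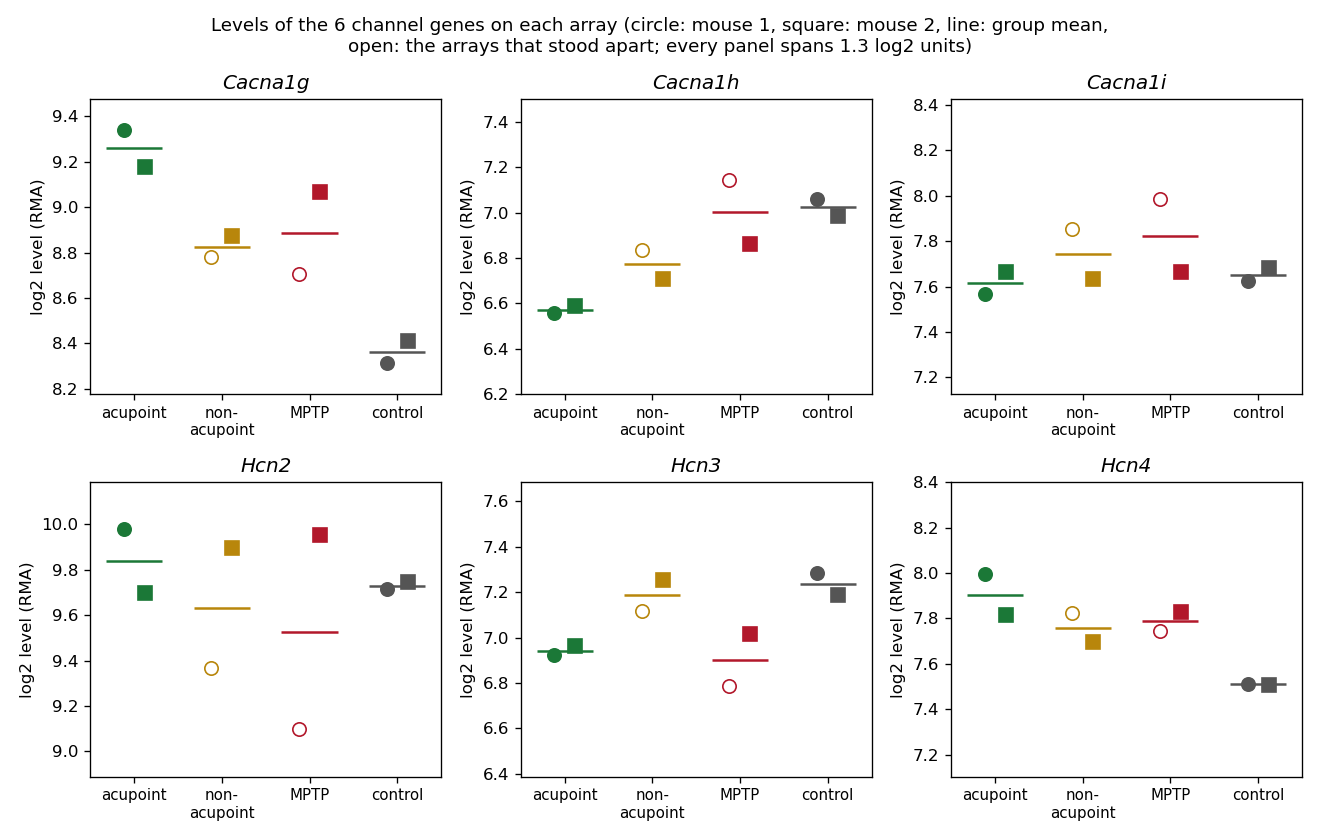
Log2 level of each channel gene (vertical axes, each spanning the same number of log2 units) on each array, by group (horizontal axes). Circles are mouse 1, squares mouse 2, lines group means and open symbols the arrays that stood apart. All injected mice lie above both controls in Cacna1g and Hcn4, and the open symbols lie lowest in Hcn2 and highest in Cacna1i.

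Cacna1g (probe set 10389929) was the member with the widest range over the arrays, 1.03 log2 units. It stood at 9.34 and 9.18 in acupoint mice 1 and 2, at 8.78 and 8.87 in non-acupoint mice, at 8.71 and 9.07 in MPTP mice and at 8.31 and 8.41 in controls. Every one of the 6 injected mice was above both controls, as in 10.3% of all probe sets. Both acupoint mice were above all others, an ordering whose share over all probe sets was not counted, and the MPTP and non-acupoint mice overlapped. The group means ran from 9.26 ± 0.11 in acupoint mice through 8.89 ± 0.25 in MPTP mice and 8.83 ± 0.07 in non-acupoint mice to 8.36 ± 0.07 in controls (SD, n = 2 each). Against control, the difference of acupoint mice was 0.90 ± 0.16 (SE), a 1.87-fold higher level, with an adjusted p of 0.224 in the fit of all 8 arrays (limma with Benjamini-Hochberg adjustment over all probe sets, used throughout). Among the 7 comparisons this was the member value closest to the threshold of 0.05.

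With the 6 arrays the same difference of Cacna1g between acupoint mice and controls, 0.90, passed with an adjusted p of 0.00594 (limma), and it passed in all 6 fits that left out another array (adjusted p from 0.00588 to 0.0499). Neither of these groups holds an array that stood apart, so the 6-array fit changes the estimate of the spread and not the levels compared. The mean of the 3 injected groups was 0.63 ± 0.13 (SE) above control over 8 arrays (limma adjusted p = 0.301). Over 6 arrays it was 0.71 above control and passed (limma adjusted p = 0.0119), but not when either control was left out as well (highest adjusted p = 0.116). MPTP mice alone were 0.53 ± 0.16 above control (limma adjusted p = 0.714), by 0.71 over 6 arrays (limma adjusted p = 0.0753) and by 0.35 without MPTP mouse 2, and non-acupoint mice 0.47 ± 0.16 (limma adjusted p = 0.705).

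Between injected groups, Cacna1g was 0.37 ± 0.16 higher in acupoint than in MPTP mice (limma adjusted p = 0.889) and 0.43 ± 0.16 higher in acupoint than in non-acupoint mice (limma adjusted p = 0.893), and neither difference passed. Over 6 arrays these differences were 0.19 and 0.39. MPTP mouse 1, at 8.71, is the array that widens the first of them, since MPTP mouse 2 stood at 9.07, closer to acupoint mouse 2 at 9.18.

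Cacna1h (probe set 10448925) had its lowest levels in acupoint mice. Its levels were 6.56 and 6.59 in acupoint mice 1 and 2, 6.83 and 6.71 in non-acupoint mice, 7.14 and 6.86 in MPTP mice, and 7.06 and 6.99 in controls. Both acupoint mice lay below all other mice and both non-acupoint mice below the MPTP and control mice, which overlapped. The share of all probe sets with such an ordering was not counted. Acupoint mice differed from controls by -0.45 ± 0.15 (SE; limma adjusted p = 0.648) and from MPTP mice by -0.43 ± 0.15 (limma adjusted p = 0.889), a level 1.35-fold lower than in MPTP mice. The difference from controls passed over 6 arrays (-0.45, limma adjusted p = 0.0204), but was lost in each fit without an acupoint mouse or a control. It stayed only without MPTP mouse 2 or non-acupoint mouse 2, whose removal cannot alter this difference or its spread. The difference from MPTP mice was -0.29 over 6 arrays and did not pass (limma adjusted p = 0.265). Non-acupoint mice differed from controls by -0.25 ± 0.15, and MPTP mice by -0.02 ± 0.15 with a 95% interval of -0.37 to 0.33.

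Cacna1i (probe set 10425370) followed the arrays that stood apart more than the groups. Its level was 7.57 and 7.66 in acupoint mice, 7.85 and 7.63 in non-acupoint mice, 7.99 and 7.66 in MPTP mice, and 7.62 and 7.68 in controls. The 2 arrays that stood apart, at 7.85 and 7.99, were above the other 6, which lay within 7.57 to 7.68. These 2 arrays also differed from the others over all probe sets, and the share of probe sets split in this way was not counted. No difference passed in any of the 7 comparisons over 8 or 6 arrays, and the 95% intervals reached from -0.60 to 0.56 at their widest bounds. Over 6 arrays, MPTP mouse 2 differed from controls by 0.01 and acupoint mice by -0.04.

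Among the HCN genes, Hcn4 (probe set 10585851), the subtype best known from the sinoatrial pacemaker of the heart, was higher in injected mice. It stood at 8.00 and 7.82 in acupoint mice 1 and 2, 7.82 and 7.69 in non-acupoint mice, 7.75 and 7.83 in MPTP mice and 7.51 and 7.51 in controls. All 6 injected mice lay above both controls, as in 10.3% of all probe sets, and the 3 injected groups overlapped one another. The controls were 0.00161 apart, against 0.0835 to 0.181 between the mice of the injected groups. Acupoint mice exceeded controls by 0.40 ± 0.13 (SE; 1.32-fold; limma adjusted p = 0.693), MPTP mice by 0.28 ± 0.13 (limma adjusted p = 0.714), non-acupoint mice by 0.25 ± 0.13 (limma adjusted p = 0.705) and the 3 injected groups together by 0.31 ± 0.11 (limma adjusted p = 0.629). Over 6 arrays the acupoint difference passed (limma adjusted p = 0.0459), and it did so in 3 of the 6 fits without another array, being lost without acupoint mouse 1 or either control (highest adjusted p = 0.185). Cardiac and smooth muscle markers, another known place of Hcn4, averaged 6.10 and 6.12 in acupoint mice, 6.06 and 5.96 in non-acupoint mice, 5.97 and 6.05 in MPTP mice and 6.34 and 6.18 in controls (6 genes, 4 past the filter). These means are made up mostly of smooth muscle genes. Of these, Acta2, smooth muscle actin, was below control on all injected arrays (-0.55 ± 0.14, SE, limma adjusted p = 0.424), as were 9.66% of all probe sets. The only heart gene past the filter, Nppa, the atrial natriuretic peptide gene, stood at 5.98 and 6.24 in acupoint mice, 5.61 and 5.67 in non-acupoint mice, 5.63 and 5.79 in MPTP mice and 5.66 and 5.48 in controls. It was above control in both acupoint mice (0.54 ± 0.15; limma adjusted p = 0.489). In the other injected groups it overlapped with control, unlike Hcn4, and lay near the filter limit of 5.63. Myh6, a listed heart gene below the filter, stood at 4.97 and 4.75 in acupoint mice and 5.04 and 4.69 in controls. Any link of these genes to the Hcn4 levels was not tested.

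Hcn2 (probe set 10364478), the HCN gene whose loss in mice gives absence-type seizures, was the least even between mice of a group. It stood at 9.98 and 9.70 in acupoint mice, 9.37 and 9.89 in non-acupoint mice, 9.10 and 9.95 in MPTP mice and 9.71 and 9.75 in controls. The 2 arrays that stood apart, at 9.37 and 9.10, were below the other 6, which lay within 9.70 to 9.98. As for Cacna1i, the share of all probe sets split in this way was not counted. MPTP mice differed from controls by -0.21 ± 0.31 (SE; limma adjusted p = 0.782) over 8 arrays and by 0.22 over 6, so that the sign of its difference was set by MPTP mouse 1. Intervals for Hcn2 were the widest of the members, with bounds reaching -0.95 and 1.06, and it passed in none of the 7 comparisons over 8 or 6 arrays.

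**Figure D2:**
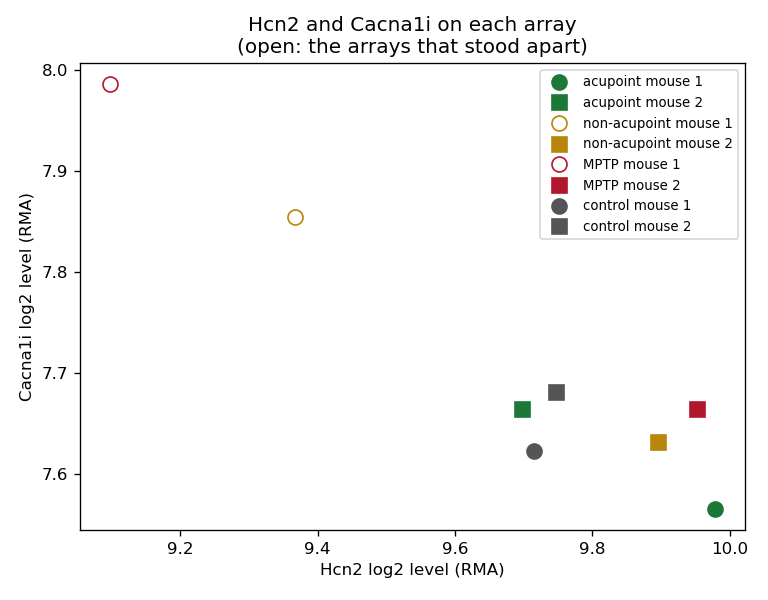
Log2 level of Hcn2 (horizontal axis) against that of Cacna1i (vertical axis) on each array, with a symbol for each mouse. The open symbols, mouse 1 of the MPTP and of the non-acupoint group, have the 2 lowest Hcn2 and the 2 highest Cacna1i levels.

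Hcn3 (probe set 10499493) levels were 6.92 and 6.96 in acupoint mice, 7.12 and 7.25 in non-acupoint mice, 6.79 and 7.02 in MPTP mice and 7.29 and 7.19 in controls. The acupoint and MPTP mice lay below all controls and non-acupoint mice, and the non-acupoint mice overlapped with controls. How many of all probe sets share this ordering was not counted. MPTP mice differed from controls by -0.33 ± 0.14 (SE; limma adjusted p = 0.714) and acupoint mice by -0.30 ± 0.14 (limma adjusted p = 0.971). Non-acupoint mice were 0.28 ± 0.14 above MPTP mice, and acupoint mice differed from non-acupoint mice by -0.25 ± 0.14. Without MPTP mouse 1 the difference of MPTP mice from controls was -0.22 and that of non-acupoint from MPTP mice 0.17. None of these passed over 8 or 6 arrays, and over 6 arrays the acupoint difference from control had an adjusted p of 0.0659 (limma).

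Read by comparison, MPTP against control asked what the toxin did to the channels, and 0 of the 6 passed an adjusted p of 0.05, as did 0% of the 15791 probe sets (limma). At an unadjusted p under 0.05, 1 member was called (Cacna1g), against 5.29% of probe sets, and the groups did not overlap in 3 members, against 38.5% of probe sets. Acupoint needling against MPTP alone gave 0 adjusted calls among members and 0% among probe sets, 1 member at the unadjusted level (Cacna1h, lower; 1.37% of probe sets) and no overlap in 2 (27.1%). Non-acupoint needling against MPTP gave 0 members at either level (0.0443% adjusted and 1.56% unadjusted among probe sets) and no overlap in 2, Cacna1h and Hcn3 (12.4%). Acupoint against non-acupoint needling gave 0 adjusted calls (0% of probe sets), 1 member at the unadjusted level (Cacna1g, higher; 1.89%) and no overlap in 3 (31.8%).

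Other comparisons with control were added after the members' values were seen. For acupoint mice, 0 members passed over 8 arrays (0% of probe sets), 3 were called at the unadjusted level (5.62%), and 4 did not overlap with control (59.6%). Over 6 arrays 3 members passed, Cacna1g and Hcn4 higher and Cacna1h lower, where 8.58% of probe sets passed. A fit of the acupoint and control arrays alone gave 3 as well (8.61% of probe sets). It is nearly the same test, since the spread of the 6-array fit comes from these arrays. The count fell when an acupoint or control array was left out of the 6. For non-acupoint mice 0 passed (0% of probe sets), 1 was called unadjusted (Cacna1g; 4.88%) and 3 did not overlap (47.7%). For the 3 injected groups together 0 passed (0%), and Cacna1g and Hcn4 were the 2 called at the unadjusted level (7.07%) and the 2 without overlap (19.9%). All 6 injected arrays lay above both controls in the same 2 genes, against 10.3% of probe sets, and below them in 0 members (9.66%). Over 6 arrays 1 member, Cacna1g, passed in this comparison (5.38% of probe sets). The remaining comparisons called 0 members over 6 arrays, where 0.359% of probe sets passed for MPTP against control, 0.327% for non-acupoint against control, 0.0189% for acupoint against MPTP, 0.145% for non-acupoint against MPTP and 0.12% for acupoint against non-acupoint.

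An F test over the 4 groups called 0 of the 6 over 8 arrays (0% of probe sets; limma adjusted p = 0.717 for Cacna1g, with an unadjusted p of 0.00722), and 3.54% of probe sets had an unadjusted p under 0.05. Over 6 arrays it called Cacna1g (limma adjusted p = 0.0263), where 2.64% of probe sets passed. That call was lost without either control (highest adjusted p = 0.18). The median difference over the members lay between -0.04 and 0.08 in the 7 comparisons, and that over all probe sets between -0.02 and 0.01. These comparisons share their control or MPTP arrays and are not independent of one another.

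**Figure D3:**
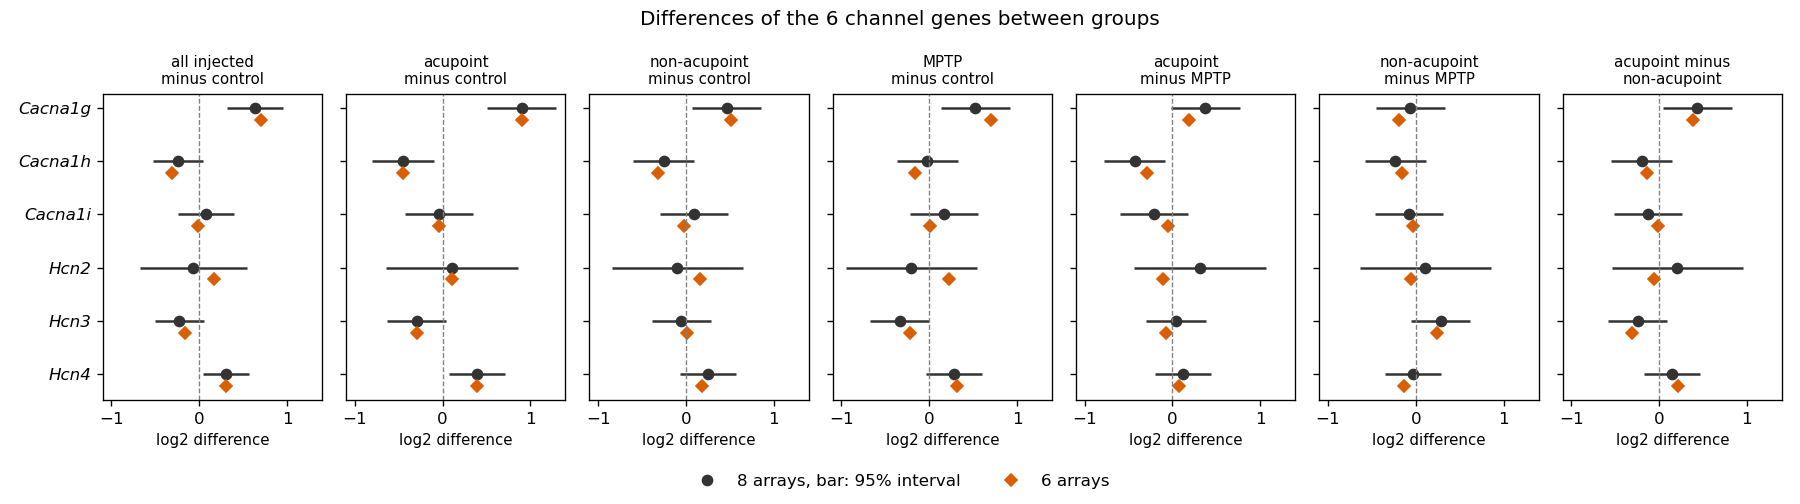
Log2 difference of each channel gene (rows) in each comparison (panels). Dots are estimates from all 8 arrays with 95% intervals not adjusted for the number of genes, and diamonds those from the 6 arrays. The intervals of Cacna1g lie above 0 in the 4 comparisons with control and in acupoint minus non-acupoint, and those of Cacna1i, Hcn2 and Hcn3 include 0 in all 7.

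Relay neuron markers were higher together with Cacna1g and Hcn4. All 12 were higher in the mean of the injected groups than in control, 10 of them at an unadjusted p under 0.05 (7.07% of all probe sets) and 0 at an adjusted one, with a median difference of 0.76 (0.71 over 6 arrays). Relative to the mean of both controls, the list mean was 0.90 and 0.87 higher in acupoint mice 1 and 2, 0.83 and 0.65 in non-acupoint mice and 0.69 and 0.59 in MPTP mice. On the same scale Cacna1g was 0.98 and 0.82 higher in acupoint mice, 0.42 and 0.51 in non-acupoint mice and 0.35 and 0.71 in MPTP mice, and Hcn4 0.49 and 0.31, 0.31 and 0.18, and 0.24 and 0.32 in the same order. Cacna1g was thus displaced about as far as the relay list in acupoint mice and MPTP mouse 2, and less far in the other 3 injected mice. The marker gene Vav3, a guanine nucleotide exchange factor, was 1.13 ± 0.14 (SE) above control in the injected groups (limma adjusted p = 0.162), and Plekhg1 1.23 ± 0.18 (limma adjusted p = 0.162). Whether more relay neuron RNA in the sample accounts for the channel levels was not tested.

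Reticular nucleus markers went in both directions. Of 8 measured (of 9 listed), 3 were higher and 5 lower in injected mice than in controls, 1 of them lower at an unadjusted p under 0.05 (7.07% of all probe sets in either direction), Ecel1, which encodes an endopeptidase (-0.55 ± 0.22, SE; limma adjusted p = 0.678). Relative to controls the list mean was -0.31 and -0.11 in acupoint mice, -0.11 and 0.06 in non-acupoint mice and 0.06 and -0.20 in MPTP mice. Cacna1h was -0.47 and -0.43, -0.19 and -0.31, and 0.12 and -0.16 in the same order. In the acupoint and non-acupoint mice the value of Cacna1h was lower than that of the list, which in non-acupoint mouse 2 was not below control. Parvalbumin, Pvalb, the calcium buffer of reticular neurons, was 0.25 ± 0.35 above control in acupoint mice and Slc32a1, the vesicular GABA transporter, -0.44 ± 0.28.

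**Figure D4:**
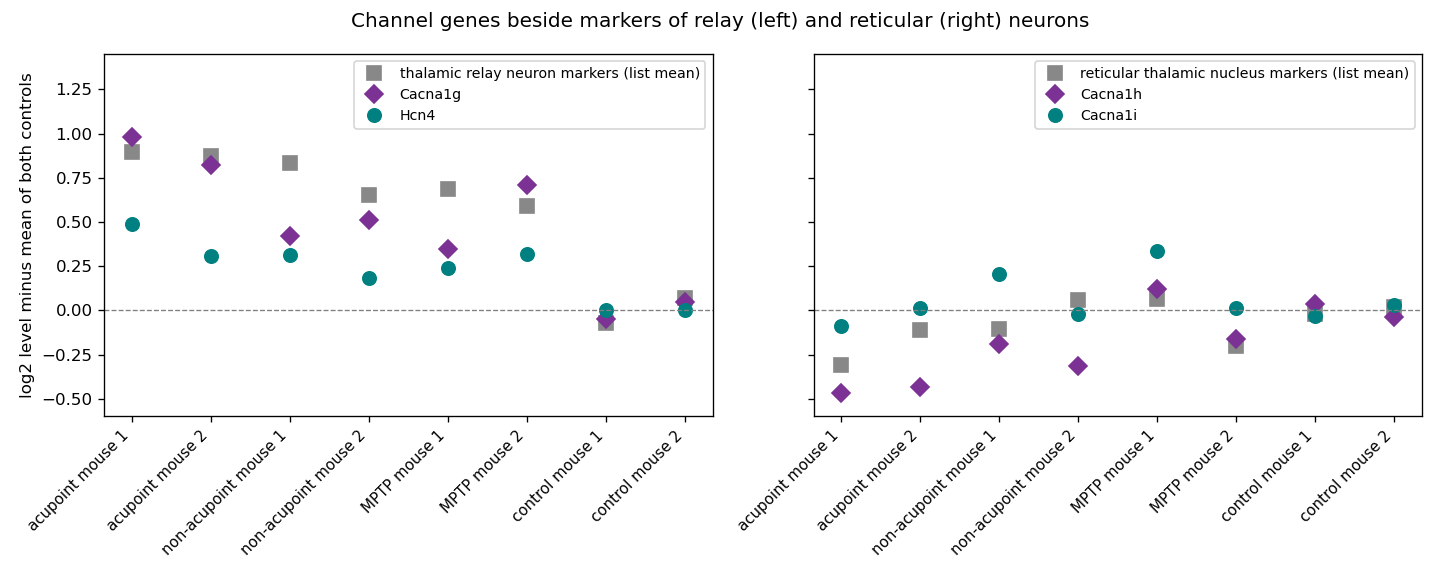
Log2 level minus the mean of both controls (vertical axes) on each array (horizontal axes). Grey squares are marker list means, for relay neurons on the left (with Cacna1g and Hcn4) and reticular neurons on the right (with Cacna1h and Cacna1i). The relay list, Cacna1g and Hcn4 are above both controls in every injected mouse, and Cacna1h is lowest in the acupoint mice.

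Other genes of the burst machinery were taken from lists. In a list of companion channels of burst firing, 16 of 17 genes were measured. In the injected groups against control 1 of the 16 was higher and 0 lower at an unadjusted p under 0.05, a share no larger than the 7.07% of all probe sets, 0 passed the adjusted threshold (limma), and the median difference was 0.09. The higher one was Kcnma1, the large-conductance calcium-activated potassium channel, at 9.93 and 9.97 in acupoint mice, 10.30 and 9.59 in non-acupoint mice, 10.20 and 9.50 in MPTP mice and 9.21 and 9.23 in controls. Its difference of 0.69 ± 0.25 (SE; limma adjusted p = 0.628) was 0.46 over 6 arrays. Kcnj9, a subunit of the potassium channels that GABA-B receptors open, stood at 9.13 and 9.27 in acupoint mice against 8.27 and 8.71 in MPTP mice, a difference of 0.71 ± 0.23 (limma adjusted p = 0.889), and at 8.33 and 8.46 in controls. Kcnk2, a leak potassium channel, had levels of 7.70 and 7.68 in acupoint mice and 8.15 and 8.03 in controls (difference -0.40 ± 0.15, limma adjusted p = 0.782). Pex5l, which encodes the HCN subunit partner TRIP8b, was like Hcn2 lowest on the arrays that stood apart, at 9.54 and 9.40 against 9.73 to 10.06 on the other 6. Such a split was not counted over all probe sets.

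Of the subunits of high voltage-activated calcium channels, 17 of 18 listed genes were measured and 15 tested. In the injected groups 4 were higher and 1 lower than in control at an unadjusted p under 0.05 (7.07% of all probe sets), and 0 passed the adjusted threshold (limma). Cacna1c, the L-type channel Cav1.2, stood at 9.03 and 8.85 in acupoint mice, 9.11 and 8.60 in non-acupoint mice, 9.13 and 8.60 in MPTP mice and 8.10 and 8.09 in controls. Its difference of 0.79 ± 0.20 (SE; limma adjusted p = 0.389) was 0.62 over 6 arrays, and all injected mice were above both controls, as for 10.3% of all probe sets. Cacng2, the AMPA receptor regulator stargazin, whose loss gives absence seizures in mice, was 0.28 ± 0.10 above control (limma adjusted p = 0.643). Stac2, a calcium channel adaptor, was below control on all injected arrays (-0.37 ± 0.12, limma adjusted p = 0.576), as were 9.66% of all probe sets.

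Enzymes that make and break down cAMP, the ligand of HCN channels, were all measured (19 of 19). Of these, 3 were higher and 2 lower in injected mice than in controls at an unadjusted p under 0.05 (7.07% of all probe sets), with 0 past the adjusted threshold (limma). The calcium-activated adenylyl cyclase gene Adcy1 stood at 10.48 and 10.36 in acupoint mice, 9.91 and 9.99 in non-acupoint mice, 9.89 and 10.22 in MPTP mice and 9.22 and 9.28 in controls. Like Cacna1g, it was above both controls in all 6 injected mice, as were 10.3% of all probe sets, and highest in acupoint mice. Its difference from control in the injected groups was 0.89 ± 0.13 (SE, limma adjusted p = 0.162). Pde7b, a cAMP phosphodiesterase, was 0.97 ± 0.24 above control (limma adjusted p = 0.389). Adcy2 and Adcy7, other adenylyl cyclases, were below control on all 6 injected arrays (-0.35 ± 0.12 and -0.33 ± 0.11), as were 9.66% of all probe sets.

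Likeness of pattern was measured as Pearson's r of log2 levels over the 8 arrays among 13524 genes, as a description only, since the arrays share groups and the split of 2 against 6. The genes most like Cacna1g were Adcy1 (r = 0.987), Inpp5j (0.983) and Mgat5 (0.982), and over 6 arrays Dagla (0.999), Auts2 (0.999) and the relay marker Tcf7l2 (0.998). Those most like Hcn4 were Zfp423 (0.989), Slc29a1 (0.985) and Dagla (0.982), over 6 arrays Nrn1 (0.999), Med15 (0.993) and Trnp1 (0.993). Cacna1h was most like Htr1d (0.959), Lix1 (0.945) and Rtl8c (0.941), over 6 arrays Smyd2 (0.995), Chrna6 (0.995) and Dnajc12 (0.994). Chrna6 encodes a nicotinic receptor subunit known from midbrain dopamine neurons, whose markers also differed between groups. Hcn3 was most like Zfand2a (0.968), Flywch1 (0.962) and Crebl2 (0.945), over 6 arrays Rpl19 (0.994), Slit1 (0.992) and Akt1 (0.991). For Hcn2 the closest were Sec61b (0.989), Nefm (0.989) and Ddx24 (0.989), and for Cacna1i Cd68 (0.990), BC024978 (0.986) and Srgn (0.981). Over 6 arrays the closest to Hcn2 were Pcif1 (0.987), Ubtd2 (0.985) and Ywhag (0.983), and to Cacna1i Palmd (0.993), BC005624 (0.983) and Vegfa (0.969), none of them among the genes named over 8 arrays.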

How the data were processed

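Total RNA of the bilateral thalamic tissue of 8 mice was labelled from 300 ng for each array, per the labels' protocols. The deposited values are log2 levels that the authors made with Affymetrix Expression Console and RMA, per the submitters' processing notes, with no version named there. RMA draws arrays towards a common distribution, so changes in total RNA per cell are not seen. Genes were named by the platform annotation. Probe sets without any gene symbol, and the dimmest 40% (mean under 5.63), were left out of the test, and those with several symbols were kept. Group means were estimated from the 8 arrays with limma 3.58.1 in R 4.3.3 (lmFit, eBayes; 4 residual and 2.53 prior degrees of freedom), two-sided, with Benjamini-Hochberg adjustment over 15791 probe sets and a threshold of 0.05. P-values measure the spread between 2 mice a group, and the number of arrays limits precision. The fit was tested on simulated data. Named genes are the 6 channels, up to 2 higher and 2 lower genes of smallest p per list, and the 3 genes of highest correlation with each channel; list genes shown for their values at other comparisons, Pex5l among them, were chosen after their values were seen. Members, lists and the 6-array fit were chosen with earlier results of these data known. Alternatives were other normalizations, filters, priors, sample sets, a replicate block and leaving out each mouse. Of 17 lists (167 symbols, 151 measured), those of cell types not set beside a channel are not described.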

Additional observations from a re-analysis of the deposited data

How the results depend on the processing

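Over all 8 arrays no channel gene passed the adjusted threshold (limma) in any comparison, and this count of 0 held under quantile and cyclic loess normalization, other filters, an intensity trend, a robust prior, gene means over probe sets and each fit of 8 arrays without 1 mouse; Cacna1h was not tested with the dimmest 60% left out. No normalization turned a member's direction. In acupoint mice against control the count was 3 with the 6 arrays, and 3 with only these groups, which is nearly the same test. This count fell when an acupoint or control array was also left out of the 6. For the injected groups it was 1 with the 6 arrays (0 to 2 with 1 more left out), and for the F test 1 (0 to 1). These fits hold fewer samples and omit the pair that stood apart.

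With the replicate block the count was 0 in every comparison, and the differences were those of the unblocked fit. The differences between mouse 1 and mouse 2 correlated at r = 0.822 between the non-acupoint and MPTP groups, whose mouse 1 arrays stood apart. For the other pairs of groups r lay between -0.282 and 0.19. Whether mice of the same number were handled together was not tested.

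Directions turned with the 6 arrays for Hcn2 in MPTP minus control (0.22), acupoint minus MPTP (-0.11), non-acupoint minus MPTP (-0.057), acupoint minus non-acupoint (-0.057), non-acupoint minus control (0.16) and the injected groups minus control (0.16). They also turned for Hcn3 in acupoint minus MPTP (-0.076) and non-acupoint minus control (0.018), and for Cacna1i in non-acupoint minus control (-0.020) and the injected groups minus control (-0.015). Leaving out 1 mouse gave these ranges where a sign turned. For MPTP minus control they were -0.16 to 0.12 for Cacna1h and -0.63 to 0.22 for Hcn2. For acupoint minus MPTP they were -0.11 to 0.74 for Hcn2 and -0.076 to 0.15 for Hcn3. For non-acupoint minus MPTP they were -0.24 to 0.12 for Cacna1g, -0.24 to 0.080 for Cacna1i, -0.32 to 0.53 for Hcn2 and -0.094 to 0.036 for Hcn4. For acupoint minus non-acupoint the range was -0.057 to 0.47 for Hcn2. For acupoint minus control they were -0.087 to 0.012 for Cacna1i and -0.033 to 0.25 for Hcn2. For non-acupoint minus control they were -0.020 to 0.20 for Cacna1i, -0.36 to 0.16 for Hcn2 and -0.12 to 0.018 for Hcn3. For the injected groups minus control the range was -0.21 to 0.076 for Hcn2. None of these values passed, and the cause was not tested.

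Counts over all probe sets varied with the fit. Adjusted calls reached 57 against 0 for MPTP minus control, 3 against 0 for acupoint minus MPTP, 0 to 23 against 7 for non-acupoint minus MPTP, 19 against 0 for acupoint minus non-acupoint, 1370 against 0 for acupoint minus control, 52 against 0 for non-acupoint minus control, 854 against 0 for the injected groups and 419 against 0 for the F test. Unadjusted calls ranged from 244 to 5564 against 836 for MPTP minus control, 62 to 4131 against 216 for acupoint minus MPTP, 81 to 2435 against 246 for non-acupoint minus MPTP, 108 to 1997 against 299 for acupoint minus non-acupoint, 356 to 4441 against 888 for acupoint minus control, 213 to 3365 against 770 for non-acupoint minus control, 322 to 3995 against 1116 for the injected groups and 176 to 3910 against 559 for the F test.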
